A study of Homo sapiens with 4 samples.

Results

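Translation initiation factor genes were followed in KYSE30 and TE-1, established lines of human esophageal squamous cell carcinoma (ESCC). PAS-seq sequences the 3′ ends of polyadenylated RNA, so each tag marks where a transcript was cleaved. In each line, 1 library came from cells cultured with l-lactate (20 mM, 24 h) and 1 from control cells, whose treatment label is PBS. The labels of both control samples name KYSE32 and TE-3 as the cell line, whereas the titles, which were followed here, have KYSE30 and TE-1, as does the study. No culture was repeated. Within a line there is therefore no spread between replicates. Spread in the tests is between single cultures of different lines or treatments, combined by limma with that of all genes tested.

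The genes are the protein-coding genes of GENCODE 44 whose symbol starts with EIF followed by a number, 56 of 20046. EIF1AY was not analysed here. Of the other 55 genes, 44 had at least 1 listed poly(A) cluster (PAC) with its dominant site on the same strand inside the gene, as against 10841 of all protein-coding genes. The deposited value of a PAC is its TPM, here the tags of the PAC scaled to the total tags of the library, and the level of a gene is the summed TPM of its PACs. A tag stands for one 3′ end whatever the transcript length, so levels need no length correction between genes. A level counts only listed PACs whose dominant site lies inside the annotated gene, which limits any ranking of genes by level. A lower level cannot tell fewer expressing cells from less RNA per cell.

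The libraries hold 7174991 to 10393799 tags each. Here and below, of each pair of values for a line the l-lactate library comes first and the control second, unless a sentence gives another order. Line markers were listed in both libraries of a line or in neither, apart from CDH1 in TE-1. SOX2, a squamous transcription factor, was at 220 and 168 TPM in the KYSE30 libraries and not listed in TE-1, and KRT17, a squamous keratin, was at 187 and 245 TPM in TE-1 and not listed in KYSE30. KRT6A, a further squamous keratin, was at 40.4 and 20.3 TPM in KYSE30, a wide gap within the line, and not listed in TE-1. Of 6 squamous markers 3 were listed, and KRT5, KRT14 and TP63 were not. Markers too were counted by PACs inside the annotated gene, so a marker not listed was not shown to be silent. All 4 general epithelial markers were listed, with CDH1 at 1.30 TPM with l-lactate and not listed in the control in TE-1. Of 5 markers of immune, endothelial and stromal cells only COL1A1 was listed, at 4.84 and 5.39 TPM in TE-1.

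Initiation brings the small ribosomal subunit, the initiator tRNA and the mRNA together at the start codon. eIF2 carries the initiator tRNA with GTP, eIF2B recharges it, and the eIF2 kinases phosphorylate eIF2 under stress and so slow initiation. eIF3 is the large scaffold on the small subunit, eIF4E binds the cap, eIF4A unwinds the leader with the help of eIF4B, eIF4G ties them together, and the 4E-BP proteins hold eIF4E away from eIF4G. eIF1, eIF1A and eIF5 act in the choice of the start codon, and eIF5B joins the large subunit. Lactate entered the study as a signal that can change which poly(A) site a gene uses, and the questions here are whether these genes changed in level or in site with l-lactate, and where the lines differ.

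The 44 genes carried 84 PACs, 73 of them listed in all 4 libraries. The 70 PACs in 3′ UTRs held 99.3% to 99.5% of the summed TPM, and the other 9 exonic and 5 intronic PACs held the rest. Of the 44 genes, 17 (38.6%) had a single PAC, as against 65.0% of all genes with a PAC. Weak PACs are not listed, so a gene at a higher level can have more of them listed. The 44 genes, of 10841 with a PAC, held 0.964% to 1.162% of the listed TPM of a library. The part of level in this contrast was not tested. AATAAA, the main poly(A) signal, stood within 50 nt before the dominant site in 68.57% of the 70 3′ UTR PACs (Wilson 95% interval 56.97% to 78.24%) and in 66.72% of 13646 3′ UTR PACs of all genes. TGTA, the core of the motif bound by the cleavage factor CFIm (which contains NUDT21), stood within 100 nt before the site in 60.0% and 58.06%. The transcript strand alone was searched. The intervals, here and below, cover counting error only.

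The sites below belong to the genes whose level or site use the later results turn on. Each line gives the 30 nt that end at the dominant site, on the transcript strand of GRCh38, with the poly(A) signal in capitals. A numbered site stands for a whole PAC, and some PACs are wide. Those of EIF1AX sites 2 and 3 span 235 and 632 nt. In the TE-1 control the dominant position held 279 of the 567 tags of site 3. AATAAA was sought first, then ATTAAA, then AGTAAA, and the copy nearest the site was marked. In windows of this length they stood in 63.2%, 18.1% and 3.95% of the 3′ UTR PACs of all genes, and none of them in 17.6%. A match describes the letters and does not show that the signal is used. EIF1AX, the X-linked gene of eIF1A, has 4 sites within a single stretch of 3′ UTR:
EIF1AX site 1 (chrX:20128210-20128239, minus strand): acaaagaagATTAAAatttcattagcatga
EIF1AX site 2 (chrX:20127236-20127265, minus strand): ctgagaaataaAATAAAatgtcatgctgca
EIF1AX site 3 (chrX:20126121-20126150, minus strand): atgcacagaaAATAAAatgtttgaaatcca
EIF1AX site 4 (chrX:20124526-20124555, minus strand): aattagaaAATAAAatatgaacaactttca
EIF4EBP2, the gene of a 4E-BP, has 4 sites in its 3′ UTR, and the first and the last lack both main signals in this window:
EIF4EBP2 site 1 (chr10:70422008-70422037, plus strand): agcccttagaggaaaacagttcaactctga
EIF4EBP2 site 2 (chr10:70423885-70423914, plus strand): gtttttaATTAAActccaagtctcatttta
EIF4EBP2 site 3 (chr10:70427319-70427348, plus strand): actctcagcttttAATAAAagatgaaatca
EIF4EBP2 site 4 (chr10:70428588-70428617, plus strand): tagttaaatcAGTAAAgatcttgagtatca
EIF4B and EIF4G3 are shown because most of their difference with l-lactate came from sites upstream of the 3′ UTR. The first EIF4B site is intronic, and the first EIF4G3 site lies in an exon of a transcript model with no defined coding sequence:
EIF4B site 1 (chr12:53024612-53024641, plus strand): tttaAGTAAAaacagaccaacttaaattta
EIF4B site 2 (chr12:53040666-53040695, plus strand): ctgAATAAAttttccactcttggaaaggta
EIF4G3 site 1 (chr1:21175116-21175145, minus strand): tgtaaatcAATAAAtaatgattggatgtta
EIF4G3 site 2 (chr1:20960853-20960882, minus strand): catgttaAATAAAtactttgacatatgtta
EIF4G3 site 3 (chr1:20806886-20806915, minus strand): aagcagagaAATAAAtttccctccccttca
None of these 13 sites was followed by an A-rich stretch (7 or more A in the next 10 nt, or 6 A in a row), the sequence on which an oligo(dT) primer can start inside a transcript. Of the 70 3′ UTR PACs 1 was, the first PAC of EIF3M. Outside 3′ UTRs, the first PAC of EIF3J and PACs 1, 2 and 3 of EIF5B were too, and these count in the levels of their genes.

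Together the genes held 8944.0 and 8999.3 TPM in KYSE30 and 10458.3 and 10812.3 TPM in TE-1. The sum was 1.185 times as high in TE-1 as in KYSE30 (counting interval 1.177 to 1.194). With l-lactate it was 0.9939 of the control in KYSE30 (0.9831 to 1.005) and 0.9673 in TE-1 (0.9588 to 0.9758). The plot of levels by library shows that single genes span more than 2 orders of magnitude. EIF1 stood at 1004 and 1056 TPM in KYSE30 and 985 and 1125 TPM in TE-1, whereas EIF1AD, a nuclear relative of eIF1A, stood at 4.60 and 5.92 TPM in KYSE30 and 5.195 and 4.91 TPM in TE-1.

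**Figure D1:**
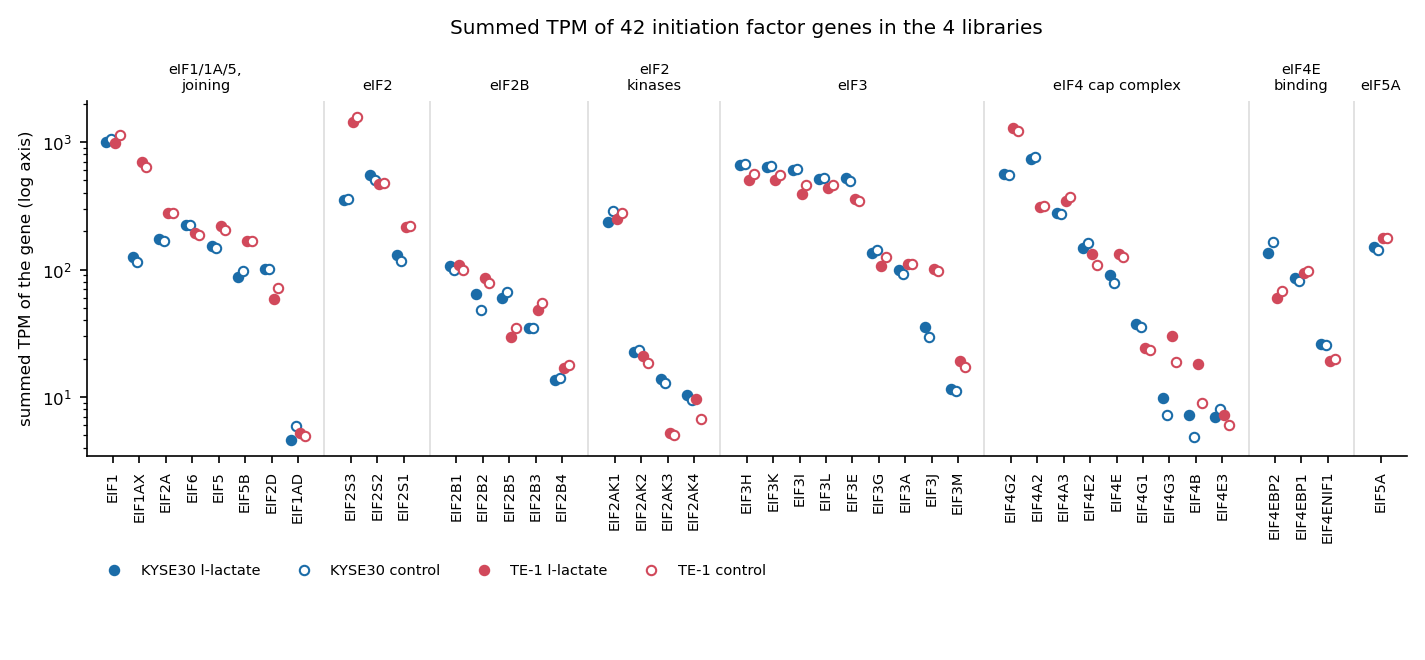
Summed TPM (log axis) of the 42 genes with a mean TPM of at least 5, grouped by role and ordered by mean level, with 1 point per library, blue for KYSE30, red for TE-1, filled for l-lactate and open for control. The red and blue points of EIF1AX, EIF2S3, EIF3J, EIF4G2 and EIF4A2 stand well apart, while filled and open points of a line mostly lie close together.

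The line was the larger difference. Of the 42 genes with a mean TPM of at least 5, 5 were higher in TE-1 (EIF1AX, EIF2S3, EIF3J, EIF4G3 and EIF4G2) and 3 were lower (EIF4A2, EIF2AK3 and EIF4EBP2), at a limma adjusted p of at most 0.05 and a 2-fold difference. That is 8 of 42, or 19.0%, where 32.5% of the 9182 genes tested were called. By direction, 15.7% of all genes were called higher in TE-1 and 16.8% lower. Without the 2-fold limit 32 of 42 passed, where 73.0% of all genes did, so the share is near the background. They were 17 genes higher in TE-1 (36.7% of all genes were) and 15 lower (36.3%). The median difference, TE-1 minus KYSE30, was 0.02 on the log2(TPM + 1) scale over the 42 genes and 0.00 over all genes, and the median size of a difference was 0.51 and 0.63. Folds below are from the same scale. Each line has a single l-lactate and a single control culture, which leaves 1 residual degree of freedom per gene. limma combines it with a variance estimated over all genes tested, with a prior of 7.68 degrees of freedom. The SE and p-values thus rest mostly on that shared variance and do not measure the spread of repeated cultures.

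**Figure D2:**
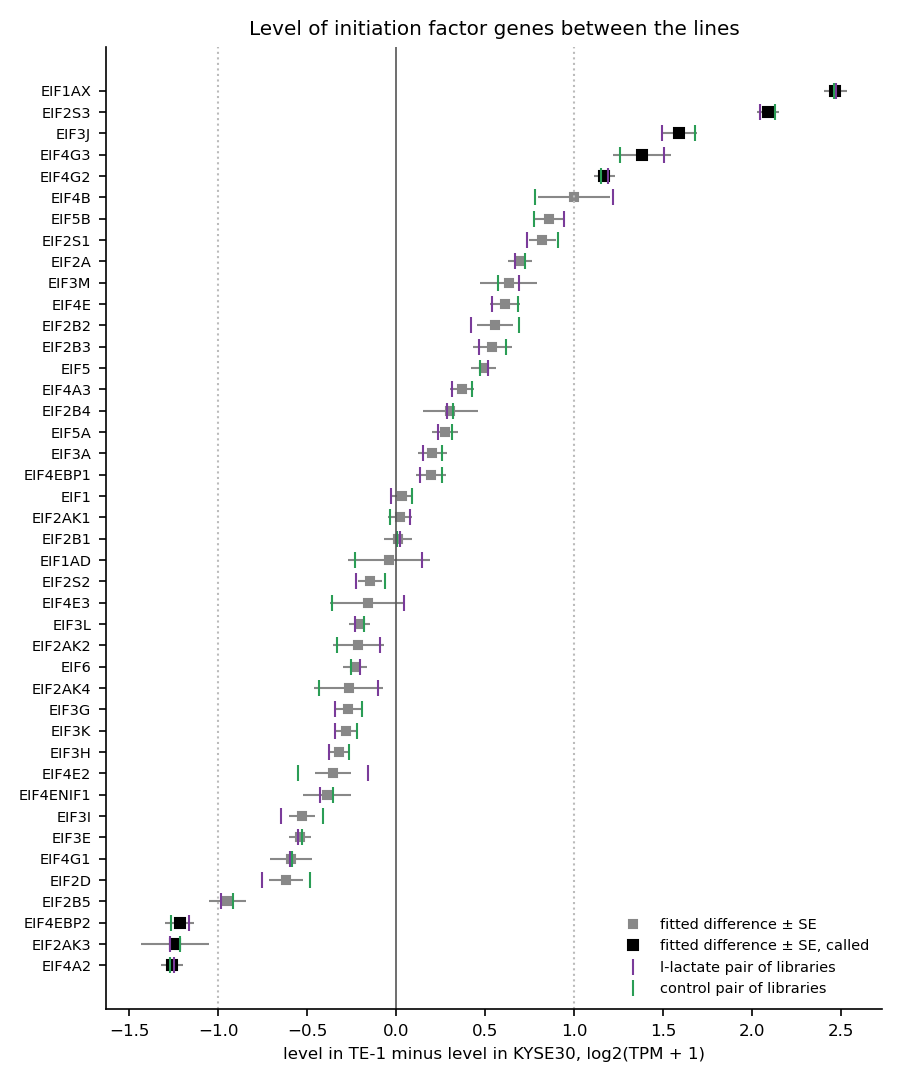
Difference in level, TE-1 minus KYSE30, on the log2(TPM + 1) scale for 42 genes, with the limma SE as a bar, black squares for the 8 genes called, ticks for the l-lactate and the control pair of libraries, and dotted lines at a 2-fold difference. For the 8 genes called, both ticks lie beyond the 2-fold line on the same side, from EIF4A2 at -1.26 to EIF1AX at 2.47.

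EIF1AX, whose product scans with the small subunit, had the largest difference among the 42 genes. It was at 124 and 115 TPM in KYSE30 and at 695 and 636 TPM in TE-1. Both TE-1 libraries lay above both KYSE30 libraries, by 2.47 ± 0.06 (log2, SE, n = 2 libraries a line), which is 5.52-fold, with a limma adjusted p of 7.09e-09. EIF2S3, the X-linked gene of the gamma subunit of eIF2 that holds the initiator tRNA, was at 349 and 356 TPM in KYSE30 and 1444 and 1561 TPM in TE-1. It was 4.25-fold higher in TE-1 (log2 2.09 ± 0.06, limma adjusted p of 1.07e-08).

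The other 7 tested genes of the group with eIF1, eIF1A and eIF5 were not called. EIF5B was nearest to the limit, at 86.7 and 97.2 TPM in KYSE30 and 168 and 167 TPM in TE-1 (log2 0.86 ± 0.08). EIF2A, which can bring the initiator tRNA to some mRNAs, was also higher in TE-1 and under 2-fold, at 173 and 169 TPM in KYSE30 and 275 and 280 TPM in TE-1. EIF2D, which takes part in recycling ribosomes, was lower, at 100.2 and 101 TPM in KYSE30 and 59.0 and 72.0 TPM in TE-1. EIF6, which keeps the ribosomal subunits apart, was at 222 and 223 TPM in KYSE30 and 192 and 187 TPM in TE-1, and shares its span with another annotated gene.

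The other subunits of eIF2 differed less. EIF2S1, the alpha subunit that the kinases phosphorylate, was at 129 and 116 TPM in KYSE30 and 216 and 219 TPM in TE-1, a difference of 0.82 ± 0.08 (log2) that is under 2-fold. EIF2S2, the beta subunit, was at 552 and 503 TPM in KYSE30 and 471 and 481 TPM in TE-1, with a limma adjusted p of 0.076. EIF2S2 was the highest in KYSE30 and EIF2S3 in TE-1. EIF2S3B, a copy on chromosome 12, had no PAC listed.

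Of the 5 eIF2B genes none was called. EIF2B5, the catalytic epsilon subunit, came nearest, at 59.5 and 66.5 TPM in KYSE30 and 29.6 and 34.8 TPM in TE-1 (log2 -0.95 ± 0.10), just inside the 2-fold limit. EIF2B1, the highest of the 5 by mean level, was at 106 and 98.7 TPM in KYSE30 and 108 and 98.9 TPM in TE-1, so the groups overlapped. Among the 4 kinases, EIF2AK3 (PERK, the sensor of the endoplasmic reticulum) was lower in TE-1, at 13.9 and 12.9 TPM in KYSE30 and 5.195 and 5.00 TPM in TE-1 (log2 -1.24 ± 0.19, limma adjusted p of 0.000317). EIF2AK1 (HRI, the heme-regulated kinase) was the highest kinase gene and overlapped between the lines, at 234 and 287 TPM in KYSE30 and 247 and 280 TPM in TE-1. EIF2AK2 (PKR) and EIF2AK4 (GCN2) stayed between 6.74 and 23.6 TPM. In KYSE30 most of EIF2AK4 was an exonic PAC upstream of the 3′ UTR, at 7.25 and 6.06 TPM and not listed in TE-1. Its 3′ UTR PAC was at 3.21 and 3.37 TPM in KYSE30 and 9.68 and 6.74 TPM in TE-1.

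In eIF3, 1 of 9 tested genes was called. EIF3J, a loosely held subunit, was at 35.1 and 29.5 TPM in KYSE30 and 101 and 96.7 TPM in TE-1, 3.00-fold higher (log2 1.59 ± 0.10, limma adjusted p of 9.44e-07). A further PAC 301 nt past its annotated end was listed in TE-1 alone, at 8.74 and 9.04 TPM. Most of the other subunits leaned the other way without reaching 2-fold. EIF3H, the highest, was at 656 and 673 TPM in KYSE30 and 504 and 559 TPM in TE-1. EIF3E, EIF3I, EIF3K, EIF3L and EIF3G were also lower in TE-1 with an adjusted p of at most 0.05, which makes 6 of 9 lower and 3 higher without the size limit. EIF3F was listed in 1 library only, at 5.31 TPM in TE-1 with l-lactate.

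Among the genes of the cap complex, EIF4G2 (DAP5, an eIF4G relative that does not bind eIF4E) was the highest. It was at 563 and 549 TPM in KYSE30 and 1282 and 1219 TPM in TE-1, 2.25-fold higher in TE-1 (log2 1.17 ± 0.06, limma adjusted p of 2.32e-07). EIF4A2, a helicase gene, went the opposite way, at 740 and 759 TPM in KYSE30 and 311 and 315 TPM in TE-1, 2.39-fold lower in TE-1 (log2 -1.26 ± 0.06, limma adjusted p of 1.85e-07). Its paralogue EIF4A1 has a single PAC whose dominant site lies 1 nt past the annotated end of the gene (chr17:7579004-7579007), so it is outside the rule used here. Counted with the gene lengthened by 1000 nt, EIF4A1 was at 75.0 and 70.8 TPM in KYSE30 and 38.3 and 35.0 TPM in TE-1 (log2 -0.97 ± 0.10). In all 4 libraries EIF4A2 was above EIF4A1.

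EIF4G3 was at 9.90 and 7.27 TPM in KYSE30 and 29.9 and 18.8 TPM in TE-1 (log2 1.38 ± 0.16, limma adjusted p of 6.1e-05). Its difference came from the site upstream of the 3′ UTR, at 6.69 and 4.04 TPM in KYSE30 and 22.3 and 15.7 TPM in TE-1. The PAC of its 3′ UTR was at 3.21 and 3.23 TPM in KYSE30 and 4.01 and 3.08 TPM in TE-1, a difference of 0.10 (log2). EIF4G1, the main scaffold gene, was at 37.5 and 35.7 TPM in KYSE30 and 24.4 and 23.5 TPM in TE-1, under 2-fold. By summed TPM, EIF4G1 was thus above EIF4G3 in both KYSE30 libraries and in the TE-1 control, and below it in TE-1 with l-lactate. That last order rests on the PACs of EIF4G3 upstream of its 3′ UTR. At 3′ UTR PACs alone EIF4G1 was above EIF4G3 in every library.

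The cap-binding genes differed less between the lines. EIF4E was at 90.7 and 78.2 TPM in KYSE30 and 132 and 126 TPM in TE-1 (log2 0.61 ± 0.08), and its relative EIF4E2, which binds the cap without building the usual complex, was at 148 and 161 TPM in KYSE30 and 133 and 109 TPM in TE-1 (log2 -0.36 ± 0.10). EIF4E2 was above EIF4E in KYSE30, whereas in TE-1 they were at similar levels. Among the genes that restrain eIF4E, EIF4EBP2 was at 134 and 166 TPM in KYSE30 and 59.4 and 68.3 TPM in TE-1, 2.32-fold lower in TE-1 (log2 -1.22 ± 0.08, limma adjusted p of 1.48e-06). EIF4EBP1 was at 85.0 and 80.7 TPM in KYSE30 and 93.5 and 96.6 TPM in TE-1, with an adjusted p of 0.0631. EIF4EBP2 therefore led in KYSE30 and EIF4EBP1 in TE-1.

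EIF5A, which helps ribosomes past difficult stretches, was at 149 and 143 TPM in KYSE30 and 176 and 178 TPM in TE-1 (log2 0.27 ± 0.07). Its paralogue EIF5A2 had no PAC listed. EIF1B, the paralogue of EIF1, was not listed in KYSE30 with l-lactate and stood between 3.56 and 3.90 TPM in the other libraries, far below EIF1.

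In all, 11 genes had no PAC inside their span. Besides EIF4A1 and EIF2S3B these were EIF3B, EIF3C, EIF3CL, EIF3D, EIF4E1B, EIF4H, EIF4EBP3, EIF5A2 and EIF5AL1. EIF3D, the eIF3 subunit that can bind the cap of some mRNAs, has a PAC 1 nt past its end (chr22:36510837-36510863) at 213 and 244 TPM in KYSE30 and 230 and 246 TPM in TE-1. No PAC was listed within 1000 nt of the end of the other 9. EIF3C and EIF3CL are near-identical copies, and EIF5AL1 and EIF2S3B closely resemble EIF5A and EIF2S3. How reads that fit several places were counted is not given in the sources used here, so the values of these genes are uncertain, and a gene without a listed PAC was not shown to be silent.

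With l-lactate no initiation factor gene passed the test over both lines (limma adjusted p of at most 0.05, 0 of 42), where 0.0762% of all genes did. At an unadjusted p under 0.05 there were 5, which is 11.9%, where 9.73% of all genes passed. The median effect, l-lactate minus control, was 0.01 (log2) over the 42 genes and 0.02 over all genes. Within a line, where there is no test, no gene was past 1.5-fold in KYSE30 (3.96% of all genes were, 1.99% higher and 1.97% lower). In TE-1 2 were, EIF4B and EIF4G3, both higher with l-lactate (4.76%, against 3.99% of all genes past the limit and 2.54% higher). EIF4G3 passed only through a PAC that was listed in TE-1 with l-lactate and not in the control. The effect had the same sign in both lines in 28 of 42 genes, or 66.7%, and in 52.4% of all genes. Whether the effect differs between the lines cannot be tested with 1 library per line and condition.

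**Figure D3:**
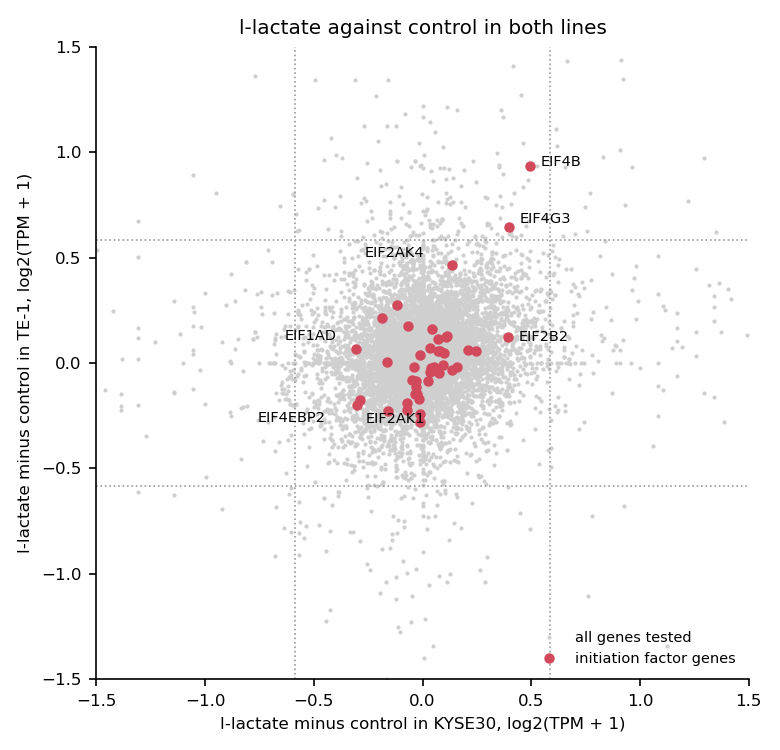
l-lactate minus control on the log2(TPM + 1) scale in KYSE30 (x axis) and TE-1 (y axis), with initiation factor genes in red, all genes tested in grey and dotted lines at 1.5-fold. The genes lie in the middle of the grey cloud apart from EIF4B and EIF4G3, which are positive in both lines and past 1.5-fold in TE-1, and 129 genes lie outside the axes.

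EIF4B, the helper of the eIF4A helicase, had the largest effect. It went from 4.85 TPM in the control to 7.25 TPM with l-lactate in KYSE30 and from 9.04 to 18.2 TPM in TE-1 (log2 0.71 ± 0.20 over both lines, limma unadjusted p of 0.00654 and adjusted p of 0.398). Its intronic site went from 2.16 to 4.74 TPM in KYSE30 and from 3.46 to 8.86 TPM in TE-1. The 3′ UTR site stood at 2.69 TPM in the control and 2.51 TPM with l-lactate in KYSE30 and at 5.58 and 9.33 TPM in TE-1. The intronic site was thus higher with l-lactate in both lines and the 3′ UTR site in TE-1 alone, on 16 to 79 tags each.

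EIF4G3 went from 7.27 to 9.90 TPM in KYSE30 and from 18.8 to 29.9 TPM in TE-1 (log2 0.52 ± 0.16, limma unadjusted p of 0.0117 and adjusted p of 0.432). Here too the upstream site carried most of the difference, 4.04 to 6.69 TPM in KYSE30 and 15.7 to 22.3 TPM in TE-1. In TE-1 a further upstream site was listed only with l-lactate, at 3.54 TPM. The 3′ UTR site differed by -0.01 (log2) in KYSE30 and 0.30 in TE-1.

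The other genes among the 6 with the largest effects had smaller ones. EIF2AK4 was at 10.5 and 9.43 TPM in KYSE30 and 9.68 and 6.74 TPM in TE-1, with a limma unadjusted p of 0.157. In KYSE30 its upstream PAC was higher with l-lactate and its 3′ UTR PAC was not. EIF2B2, the beta subunit of eIF2B, was at 63.7 and 48.2 TPM in KYSE30 and 85.5 and 78.4 TPM in TE-1 (unadjusted p of 0.0308, adjusted p of 0.475, limma). EIF4EBP2 was lower with l-lactate, 134 against 166 TPM in KYSE30 and 59.4 against 68.3 TPM in TE-1 (log2 -0.25 ± 0.08, limma unadjusted p of 0.0147 and adjusted p of 0.436). EIF2AK1 was also lower, 234 against 287 TPM and 247 against 280 TPM (limma unadjusted p of 0.00823 and adjusted p of 0.412). None of these genes passed the adjusted test.

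By role, the median effect of l-lactate lay between -0.06 and 0.06 (log2). It was 0.05 in the 3 eIF2 subunits, -0.06 in the 9 eIF3 subunits, 0.06 in the 9 genes of the cap complex, -0.06 in the 5 eIF2B genes and -0.04 in the 8 genes with eIF1, eIF1A and eIF5. It was 0.06 in the 4 eIF2 kinases, -0.0036 in the 3 genes of eIF4E binding and 0.02 in EIF5A. The summed TPM of the kinases was nevertheless lower with l-lactate in both lines, 281.3 against 332.6 TPM in KYSE30 and 283.4 against 309.9 TPM in TE-1, with EIF2AK1 the largest part of it. That of eIF4E binding was lower too, 245.6 against 271.9 TPM and 172.2 against 184.7 TPM, with EIF4EBP2 lower in both lines. Genes known to act around or downstream of eIF2 phosphorylation were read beside them. Of 8 tested genes of the integrated stress response, including ATF4, DDIT3 and ASNS, none was called (median 0.05), and 1 had an unadjusted p under 0.05. Of 19 helpers and regulators of initiation, such as MTOR, PDCD4 and the MKNK kinases, none was called (median -0.03, 1 with an unadjusted p under 0.05). Of 9 genes of elongation and termination 1 was called, EEF2K, the kinase that phosphorylates and so brakes elongation factor eEF2, at 49.9 and 28.8 TPM in KYSE30 and 71.7 and 40.5 TPM in TE-1 (log2 0.79, limma adjusted p of 0.0476). In both control libraries, however, the dominant site of its last PAC was 1 nt past the annotated end, so that PAC was left out of them. With the gene lengthened by 1000 nt EEF2K was at 49.9 and 52.5 TPM in KYSE30 and 71.7 and 73.1 TPM in TE-1, and the call was lost (log2 -0.051, limma adjusted p of 0.915). No PAC of an initiation factor gene had a dominant site inside the gene in some libraries and outside it in others, as 135 of 16229 pairs of a gene and a PAC did over all genes.

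Distal usage is how much of the summed TPM of a gene, in percent, falls in its most distal 3′ UTR PAC. It could be measured in 16 genes that had at least 2 PACs in annotated 3′ UTR with TPM above 5 in at least 1 library. In EIF2B3, EIF2B5, EIF3E and EIF4E2 these PACs lie in separate stretches of 3′ UTR, 8335 to 31650 nt from first to last. For these genes usage does not describe the length of a single 3′ UTR. It ranged from under 1% in EIF1, where the first PAC took 76.0% to 82.0% of the TPM, to over 88% in EIF3E. With l-lactate, 1 of the 16 genes changed by at least 10 percentage points in KYSE30, where 10.6% of all genes did, and none in TE-1, where 12.1% did. Over both lines no gene was called by limma, of 16 or of all 1944 genes with such PACs, and 2 of the 16 (12.5%) and 11.7% of all had an unadjusted p under 0.05. The median change was -0.97 points in KYSE30 and 0.13 points in TE-1. Usage was lower with l-lactate in both lines in 6 genes (37.5%, against 31.3% of all genes) and higher in both in 4 (25.0%, against 27.8%). Among the 6 were EIF2B3, EIF3E and EIF4E2, whose PACs lie in separate stretches.

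In EIF1AX the last site took a smaller share with l-lactate in both lines. Site 4 took 18.5% of the TPM of KYSE30 given l-lactate, or 165 of 893 tags, with an interval from 16.1% to 21.2%. In the KYSE30 control it was 25.6%, or 218 of 853 tags (from 22.7% to 28.6%). In TE-1 it was 13.99%, or 823 of 5884 tags (from 13.1% to 14.9%), against 19.3% in the control, or 1273 of 6611 tags (from 18.3% to 20.2%). The intervals do not overlap within either line. The TPM of site 4 was itself lower with l-lactate, 23.0 against 29.4 TPM in KYSE30 and 97.2 against 122 TPM in TE-1. Site 2, 974 nt after the first site, was higher, 79.3 against 61.4 TPM and 493 against 429 TPM. Over both lines the change was -6.17 ± 1.48 points (limma unadjusted p of 0.0353, adjusted p of 0.417). It did not pass the adjusted test.

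EIF4EBP2 gave values in the same direction. Site 4 took 60.2% and 65.6% of the TPM in KYSE30, and 48.7% and 54.8% in TE-1, a change of -5.76 ± 1.38 points over both lines (limma unadjusted p of 0.0352, adjusted p of 0.417). The intervals of control and l-lactate overlapped in both lines. The TPM of site 4 was lower with l-lactate, 80.8 against 109 TPM in KYSE30 and 28.9 against 37.4 TPM in TE-1, whereas site 2 was at 45.6 and 47.9 TPM and at 30.5 and 30.9 TPM. The lower level of EIF4EBP2 with l-lactate was thus seen at the last site and not at the second. Site 1 was listed in KYSE30 alone, at 7.94 TPM with l-lactate and 5.93 TPM in the control.

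Smaller differences were seen elsewhere. In EIF1 the second PAC, the main alternative to the first, took 23.2% and 17.8% of the TPM in TE-1, with intervals of 22.3% to 24.1% and 17.1% to 18.5%, and 19.2% and 17.4% in KYSE30. With a minimum TPM of 10 this PAC counts as the most distal, and the change in distal usage of EIF1 in TE-1 is then 5.41 points in place of 0.24, towards the later site and so opposite to EIF1AX and EIF4EBP2. In EIF3E the first PAC lies in the 3′ UTR of short transcript models, 31650 nt upstream of the main end, and went from 21.4 to 34.1 TPM in KYSE30 and from 30.02 to 41.7 TPM in TE-1. Distal usage of EIF3E was accordingly 95.7% in the control and 93.5% with l-lactate in KYSE30, and 91.2% and 88.3% in TE-1, with intervals that do not overlap within a line (limma unadjusted p of 0.179). In EIF2S2 the last PAC was higher with l-lactate, 67.0 against 51.6 TPM in KYSE30 and 16.6 against 11.7 TPM in TE-1, on shares of 12.2% against 10.3% and 3.54% against 2.44%.

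Other genes differed between the lines in direction. EIF2S1 went from 34.8% in the control to 42.9% with l-lactate in TE-1, with intervals of 32.9% to 36.8% and 40.7% to 45.2%, but from 32.1% to 29.3% in KYSE30. EIF2AK2 changed by 9.99 points in KYSE30 (43.4% to 53.4%), just under the limit of 10, and by -2.18 points in TE-1. EIF3M, the gene past the limit, went from 42.2% (35 of 83 tags) to 30.1% (25 of 83 tags) in KYSE30, on intervals of 32.1% to 52.9% and 21.3% to 40.7% that overlap, and from 21.3% to 27.6% in TE-1. The first PAC of EIF3M, which takes the rest of its TPM, is the 3′ UTR PAC followed by an A-rich stretch. The part of this in its usage was not tested.

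Between the lines, distal usage differed by at least 10 points in no gene with a limma adjusted p of at most 0.05 (0 of 16), where 13.8% of all genes did. At an unadjusted p under 0.05 there were 6 of 16 (37.5%), where 39.5% of all genes passed. EIF4EBP2 came nearest, at -11.1 ± 1.38 points in TE-1 (adjusted p of 0.0517, limma). EIF2S3, for all its difference in level, used its last site in 49.7% and 50.2% of the TPM in KYSE30 and in 44.7% and 44.2% in TE-1. The share of the last PAC of EIF2S2 and EIF3H was lower in TE-1, at -8.22 and -4.79 points (limma adjusted p of 0.0666 and 0.129). Neither was called. In EIF3H that PAC was at 39.6 and 38.8 TPM in KYSE30 and 5.90 and 5.87 TPM in TE-1, while the first PAC was at 616 and 634 TPM and 498 and 553 TPM.

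Within PACs the dominant cleavage site stayed in place or nearly so. Of 62 PACs of these genes with TPM above 5 in both KYSE30 libraries, none had a dominant site more than 24 nt apart between l-lactate and control, where 1.42% of all such PACs did. In TE-1 it was 0 of 60, where 1.18% did. The site was at a different nucleotide at all in 2 PACs in KYSE30, by up to 6 nt, and in 1 PAC in TE-1, by 3 nt. Shifts among the other tags of a wide PAC were not examined.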

How the data were processed

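PAS-seq libraries of total RNA from KYSE30 and TE-1 cells, 1 per line and treatment, were used. The authors trimmed reads, aligned them to GRCh38 with HISAT2, called poly(A) sites with CAGEr and joined nearby sites into PACs, dropping weak ones. They deposited the TPM of each PAC and of its dominant site, which is an RPM value (tags scaled to the total tags of the library), with no length correction. Positions of the dominant site and tag quantiles were deposited as well.

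PACs were given to GENCODE 44 genes by the dominant site on the same strand, and summed. A PAC not listed in a library counted as 0. Tags were recovered from the TPM steps for Wilson 95% intervals. All TPM were whole tags within 0.1 tag. The lowest listed value was 8 to 11 tags. limma 3.58.1 (R 4.3.3) with a trend was fitted to log2(TPM + 1) of the 9182 genes with a mean TPM of at least 5. For distal usage of 1944 genes it was fitted without a trend. Both fits had line and treatment as terms and 1 residual degree of freedom. The p-values were adjusted over all genes of a fit (Benjamini-Hochberg, two-sided). Both fits were run on simulated tags with known changes. For distal usage the simulation held counting error only, so it does not show how the p-values hold for repeated cultures. Sequences came from GRCh38. Python 3.11.15, pandas 2.3.3, SciPy 1.17.1 and pysam 0.24.0 were used.

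Genes given in every library were those called between lines, the 6 with the largest l-lactate effect, those with several 3′ UTR PACs that the results turn on, paralogue pairs and the highest gene of each role. EIF3H and further genes or PACs were chosen after their values were seen. The genes, role groups and pathway lists were chosen with earlier results of these data known.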

Additional observations from a re-analysis of the deposited data

Results flagged for a closer look

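Distal usage of EIF3M changed by -12.05 points with l-lactate in KYSE30 and by 6.262 points in TE-1, so that the libraries of the lines moved in opposite directions. The difference between the lines was not tested, since each line has 1 library per condition. The shares rest on 83 and 83 tags in KYSE30 (l-lactate, control) and on 163 and 178 tags in TE-1. The first PAC of EIF3M was followed by 7 A in the next 10 nt, and the part of this in the result was not tested.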

How the results depend on the processing

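The 8 calls between the lines and the absence of l-lactate calls over both lines held in number under every alternative scaling, pseudocount, filter and gene span tried, within 1.5 times for the line calls. EIF2AK3 fell under the 2-fold limit with a pseudocount of 5 (log2 -0.87). The count past 1.5-fold in KYSE30 (0) was 1 with no filter on low values and 3 at a lower fold limit. In TE-1 (2) it was 1 with a pseudocount of 5 and 0 both from 2-fold and at a mean TPM of at least 20, which leaves out EIF4B and EIF4G3. The ratio of sums in TE-1 was 0.9395 with median of ratios scaling, and that of TE-1 to KYSE30 was 1.194 without PACs that lie in several genes. The count of genes with distal usage changed by 10 points in KYSE30 (1) was 4 from 5 points, 0 from 20 points and 0 with a minimum TPM of 10. In TE-1 (0) it was 4 from 5 points. Between the lines (0) it was 1 for PACs of TPM above 10, and 1 for shares of 3′ UTR PACs only. Shifts of any length were 2 in KYSE30 and 1 in TE-1. No called direction of an initiation factor gene was reversed. The 3′ UTR site alone gave an l-lactate effect of -0.07 for EIF4B and -0.01 for EIF4G3 in KYSE30. The l-lactate effect of EEF2K was -0.051 with the gene lengthened by 1000 nt, and its call was also lost with a pseudocount of 0.5, no filter, PACs in several genes left out and no line term (adjusted p of 0.0565 to 1.0, limma). The split of EIF4B and EIF4G3 by site was added after the data were seen. A planned edgeR fit to recovered tags was not run. The line term of the fit pairs the libraries of a line, and without it no gene was called for l-lactate either.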

Other observations

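Several genes that differed between the lines lay among neighbours that differed in the same direction. These regions were looked at after the values were seen, and genes of a region are not independent. Within 5 Mb on each side of EIF1AX on chromosome X, 18 of 22 other tested genes were called higher in TE-1, with a median difference of 1.86 (log2). Around EIF2S3, whose region overlaps that of EIF1AX, it was 7 of 10 genes with a median of 1.77. Around EIF4A2 on chromosome 3, 23 of 37 genes were called lower in TE-1, with a median of -1.22, and EIF2B5 and EIF4G1, which are among these neighbours, were lower in TE-1 by less than 2-fold. Around EIF4G2 on chromosome 11, 18 of 39 genes were called higher, with a median of 0.89. In these 4 regions 2, 2, 1 and 2 genes were called in the other direction. Around EIF3J and EIF4G3, both higher in TE-1, 15 of 66 and 12 of 68 genes were called higher and 3 and 12 lower, with medians of 0.40 and 0.28. Around EIF2AK3 and EIF4EBP2, both lower in TE-1, 4 of 26 and 4 of 49 genes were called lower and 1 and 10 higher, with medians of -0.15 and 0.41. Of all genes tested, 15.7% were called higher in TE-1 and 16.8% lower. The number of gene copies in these lines was not analysed here.

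Some other genes of protein synthesis differed between the lines too. Of all genes tested 32.5% were called, 15.7% higher in TE-1 and 16.8% lower. Taken in either direction, the shares called in the lists below were near or below that of all genes. Of 9 tested genes of elongation and termination, 3 were called higher in TE-1 and none lower. EEF1A2, the tissue-restricted form of elongation factor eEF1A, was at 281 and 267 TPM in KYSE30 (l-lactate first, control second) and at 902 and 1034 TPM in TE-1, and its widespread relative EEF1A1 was at 6097 and 6177 TPM and at 3876 and 4274 TPM. GSPT1, the release factor eRF3a, was at 152 and 138 TPM in KYSE30 and 340 and 332 TPM in TE-1. Of the 19 helpers and regulators, 4 were called higher in TE-1 (PDCD4, an eIF4A inhibitor, DDX3X, LARP1 and PAIP1) and 2 lower (MKNK1 and MKNK2, the kinases of eIF4E). MKNK2 was at 305 and 298 TPM in KYSE30 and 145 and 129 TPM in TE-1. Of the 8 tested genes of the integrated stress response only PSAT1, of serine synthesis, was called, at 134 and 114 TPM in KYSE30 and 313 and 277 TPM in TE-1.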
